A study of Mus musculus with 22 samples.

Results

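The data described here compared cartilage of mice at postnatal day 5 in which the gene Dnmt1 had been deleted conditionally (genotype label cKO) with cartilage of mice labelled flox, called controls below. The samples were taken by their tissue and genotype labels and comprised 8 of the 22 samples of the study, 4 for each genotype. In both genotypes replicates 1 and 2 were male and replicates 3 and 4 were female. The library names began with Prx1, a name of the Prrx1 gene, and the study's cultures were labelled as carrying Prrx1-Cre. This Cre recombinase is driven by a promoter of the limb bud mesenchyme, so that chondrocytes, osteoblasts and other connective tissue cells of the limb can lose the gene, whereas blood cells, osteoclasts and endothelium come from other lineages. The labels did not say whether the control mice carried the Cre, which bones were taken, or whether each sample was 1 animal, so p-values measure only the spread between these samples, which may be partly technical. The tissue was treated with collagenase to take off adhering connective tissue before RNA was extracted.

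Dnmt1 copies the methylation pattern of the parent DNA strand onto the new strand at replication, and a cell without it loses methylation as it divides. Promoter methylation keeps a set of germ cell genes silent in body cells, and methylation also restrains transposon copies, whose double-stranded RNA can be read by cytoplasmic sensors that switch on interferon-stimulated genes. In the growth plate, chondrocytes divide in columns, secrete a matrix of type II collagen and aggrecan, enlarge into hypertrophic cells that make type X collagen, and are then replaced by bone. They depend strongly on glycolysis for energy. The title of the series places the study in energy metabolism of growth plate chondrocytes and in bone length.

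RNA was measured by BRB-seq, a method that tags the 3′ end of each transcript with a sample barcode and sequences the samples of a pool together. Each of the 8 libraries held between 1100198 and 1888896 counted reads or molecules, 1176317 to 1888896 in the controls and 1100198 to 1222358 in the cKO samples, and 3 counts, the limit that a count of 0 allows, corresponded to 1.55 to 2.75 CPM (the counts-per-million unit explained below). All control libraries were made in 1 pool and all cKO libraries in another, so pool and genotype cannot be told apart. Ribosomal RNA took 9.96% to 23.6% of the counts, and genes of the mitochondrial chromosome 6.22% to 14.7%. Levels are given as CPM, the usual counts-per-million unit, over the library total scaled by the TMM method, and differences as the log2 ratio of cKO to control with sex in the model, tested with edgeR's quasi-likelihood test and adjusted by Benjamini-Hochberg over all 8793 genes that passed a filter on low counts.

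The targeted gene followed the labels. In controls 1 to 4 Dnmt1 stood at 45.8, 41.0, 48.6 and 34.5 CPM, with a mean of 42.5 ± 6.18 (SD, n = 4). In the cKO libraries it stood at 11.8, 13.1, 14.3 and 13.8 CPM, with a mean of 13.2 ± 1.09 (SD, n = 4), a log2 difference of −1.66 (SE 0.20, adjusted p = 6.34e-05), and the groups did not overlap. Between 14 and 16 reads of Dnmt1 remained in each cKO library. Its relative Dnmt3a, which sets methylation on DNA that carries none, did not pass the test (log2 difference 0.20, adjusted p = 0.392). The Y-linked genes Ddx3y and Eif2s3y had 217 to 299 and 21 to 53 counts in the 4 male libraries and at most 1 in the female ones. Col2a1, the type II collagen that defines cartilage, was at 18103 CPM in the lowest library and 71274 CPM in the highest.

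Across the transcriptome, 544 genes changed at an adjusted p of 0.05, or 6.19% of those tested. Of these, 277 rose (3.15%) and 267 fell (3.04%). The rises were larger than the falls, with 169 genes up by more than 1 log2 unit and 69 down by as much. In 1189 genes (13.5%) the 4 control and the 4 cKO libraries did not overlap, and 474 of the called genes were among them. For a called gene named below, no overlap is therefore what most called genes show. The median log2 difference over all tested genes was 0.01. With DESeq2 in place of edgeR 64.7% of 436 calls were rises against 50.9% here, and without any filter on low counts 1044 genes were called. The plot of all tested genes shows the large rises at low levels, where the controls held few or no counts.

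**Figure D1:**
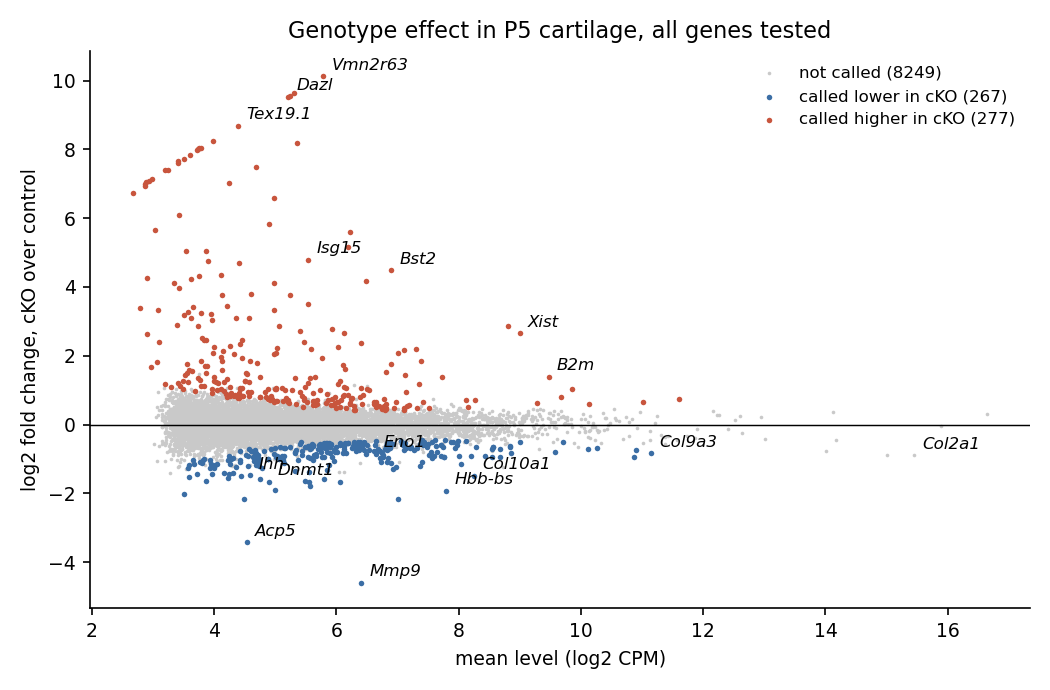
Mean log2 CPM over the 8 libraries (horizontal) and log2 ratio of cKO to control (vertical) for the 8793 tested genes, with 277 genes called higher and 267 called lower in colour. The called rises reach above 9 log2 units and the called falls end near −5.

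Among the largest rises were germ cell genes. The first 4 described were read in all 4 cKO libraries and had no count in any control library. Dazl, an RNA-binding protein that germ cells need, was counted 88, 103, 70 and 79 times in cKO replicates 1 to 4 and not at all in the controls, which makes it at least 136-fold higher against a floor of 3 counts over the control group (adjusted p = 2.74e-08). Tex19.1, a germ cell protein that guards against transposons, was counted 46, 55, 42 and 45 times in cKO and was at least 75.2-fold higher (adjusted p = 3.48e-07). Taf7l, a germ cell form of a general transcription factor subunit encoded on the X chromosome, was counted 37, 41, 35 and 26 times and was at least 55.6-fold higher (adjusted p = 2.04e-06). Dpep3, a dipeptidase of the testis, was counted 31, 26, 22 and 18 times and was at least 38.8-fold higher. For each of these 4 genes every cKO library lay above every control library.

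The promoters of these 4 genes are shown because loss of DNA methylation acts on CpG dinucleotides, which are printed in capitals. Each is the 250 bases before the transcript start in RefSeq (GRCm38.p6), written 5′ to 3′ on the strand of the gene. Dazl lies on the minus strand (promoter at chr17:50293621-50293870), Tex19.1 on the plus strand (chr11:121145893-121146142), Taf7l on the minus strand (chrX:134476491-134476740) and Dpep3 on the minus strand (chr8:105979420-105979669). They hold 20, 15, 14 and 10 CpGs in that order.
Dazl: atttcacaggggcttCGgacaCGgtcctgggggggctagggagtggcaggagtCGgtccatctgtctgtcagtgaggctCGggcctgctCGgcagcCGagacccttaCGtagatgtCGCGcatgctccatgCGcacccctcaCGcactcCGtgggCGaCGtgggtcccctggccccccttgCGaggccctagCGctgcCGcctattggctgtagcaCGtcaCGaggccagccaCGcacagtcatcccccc
Tex19.1: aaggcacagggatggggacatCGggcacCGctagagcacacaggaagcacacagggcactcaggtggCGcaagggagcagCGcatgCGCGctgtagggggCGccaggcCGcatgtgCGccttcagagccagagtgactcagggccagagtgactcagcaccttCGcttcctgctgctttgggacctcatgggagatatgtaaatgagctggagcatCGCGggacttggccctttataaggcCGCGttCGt
Taf7l: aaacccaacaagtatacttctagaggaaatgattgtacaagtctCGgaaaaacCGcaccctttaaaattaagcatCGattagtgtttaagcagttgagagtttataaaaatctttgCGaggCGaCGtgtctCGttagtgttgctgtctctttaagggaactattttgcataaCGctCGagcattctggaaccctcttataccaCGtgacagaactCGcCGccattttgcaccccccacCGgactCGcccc
Dpep3: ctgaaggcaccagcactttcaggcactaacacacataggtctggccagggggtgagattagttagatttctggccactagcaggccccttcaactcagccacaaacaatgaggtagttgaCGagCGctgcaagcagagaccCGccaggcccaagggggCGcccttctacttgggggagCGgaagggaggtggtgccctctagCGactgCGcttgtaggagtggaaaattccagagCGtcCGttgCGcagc

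Compared with other promoters of the same length, those of the risers were not richer in CpG. The 195 genes called higher with a matched promoter had a median of 12 CpGs (quartiles 5.5 and 18), the 202 called lower had 16 (8 and 24), and all 6841 tested genes with a match had 17 (11 and 24). Among called risers with no count in the controls, 14 had a match, with a median of 10.5 CpGs. The E-box CACGTG, a palindrome that occurs once in the Taf7l promoter, was found on either strand in 6.67% of promoters of genes called higher, 8.91% of those called lower, 8.95% of all tested and 6.02% of all 32841 promoters in the RefSeq table. The E2F-type motif GGCGGGAA, searched on both strands, was found in 7.18%, 2.97%, 3.98% and 1.85% of the same sets. The printed motifs are letter matches in these windows and no measure of binding or of methylation, which was not analysed here.

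The list of germ cell genes moved in 1 direction. Of 33 listed genes 29 were in the count table, and all 29 had a higher mean CPM in the cKO libraries than in the controls, with 21 at 0 in every control library. Only 7 passed the filter on low counts, and a gene silent in controls passes only through its cKO counts, so the 6 called rises among them carry no weight of their own against the 3.15% of all genes. Summed over the listed genes in the table, tested or not, as in all sums below, controls held 8.53 to 12.8 CPM and cKO samples 266 to 311 CPM. The other called members were Sohlh2, a transcription factor of early germ cells, counted 17, 19, 26 and 27 times, and Tuba3b, a testis alpha tubulin, counted 17, 10, 16 and 20 times, both with none in controls. Tuba3b has a near-identical copy, Tuba3a, counted 0 times in controls and 10, 4, 8 and 10 times in cKO, so how reads were split between them is uncertain.

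Meiotic and transposon defence genes below the filter pointed the same way with few counts. Sycp1, a core protein of the meiotic chromosome axis pair, was counted 5, 5, 7 and 4 times in cKO and not in controls. Tex101, a germ cell surface protein, was counted 7, 6, 7 and 8 times in cKO and not in controls. Mov10l1, a helicase that makes transposon-silencing small RNAs, was counted 5, 7, 9 and 1 times, also with none in controls. Some germ cell genes were low in both: Ddx4, a germ cell helicase, had 0, 0, 0 and 1 counts in controls and 3, 2, 2 and 2 in cKO. Brdt, a testis bromodomain protein, had 13, 7, 7 and 14 counts in controls and 16, 14, 16 and 15 in cKO and did not pass the test (log2 difference 0.83, adjusted p = 0.087).

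Genes of X-linked clusters formed a second such set. Of 28 listed, 18 were in the table, 15 of them at 0 in every control library, and the sum was 0.92 to 6.83 CPM in controls and 128.5 to 171 CPM in cKO. Dcaf8l, a relative of an adaptor of ubiquitin ligases, was counted 99, 95, 80 and 90 times in cKO and not in controls, at least 145.5-fold higher. Trap1a, a tumour rejection antigen, was counted 32, 19, 11 and 28 times in cKO and not in controls, at least 36.0-fold higher. Rhox5 and Rhox6, homeobox genes of the reproductive tract and placenta, did not pass the filter with 18, 7, 18 and 35 counts and 15, 5, 10 and 18 counts in cKO, against none in controls. Male and female cKO libraries both held these transcripts.

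Other genes among the largest rises had no germ cell listing. Vmn2r63, a member of the vomeronasal receptor family whose copies resemble each other, was counted 140, 119, 103 and 148 times in cKO and never in controls, at least 204-fold higher. Serpinb1c, a protease inhibitor with near-identical neighbours, was counted 116, 98, 65 and 70 times in cKO only, at least 139.5-fold higher. Counts for both families depend on how shared reads were assigned. Gm16570, a gene model without an assigned role, went from 0, 0, 0 and 1 counts to 89, 107, 84 and 96 (ratio 451, counting interval 80.5 to 17860). In all, 22 called risers had no count in any control library, and no called faller was at 0 in all cKO libraries.

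Several genes that were counted in controls, Suv39h2 and Mnd1 only near the floor of 3 counts, also rose many fold. These were chosen after their values were seen. Suv39h2, a histone H3 lysine methyltransferase best known from testis, went from 5, 5, 5 and 6 counts to 219, 175, 132 and 135 (log2 difference 5.17). Mnd1, a meiotic recombination factor, went from 3.13 ± 1.96 to 147 ± 35.2 CPM (5.60). Tex15, a testis protein of transposon silencing, went from 5.55 ± 1.02 to 56.7 ± 6.04 CPM (3.32). Noct, a rhythmic phosphatase of nicotinamide dinucleotides, went from 108 ± 13.5 to 785 ± 36.4 CPM (2.87, and more in the authors' second count table, as given below). Each had no overlap between the 4 control and the 4 cKO libraries.

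**Figure D2:**
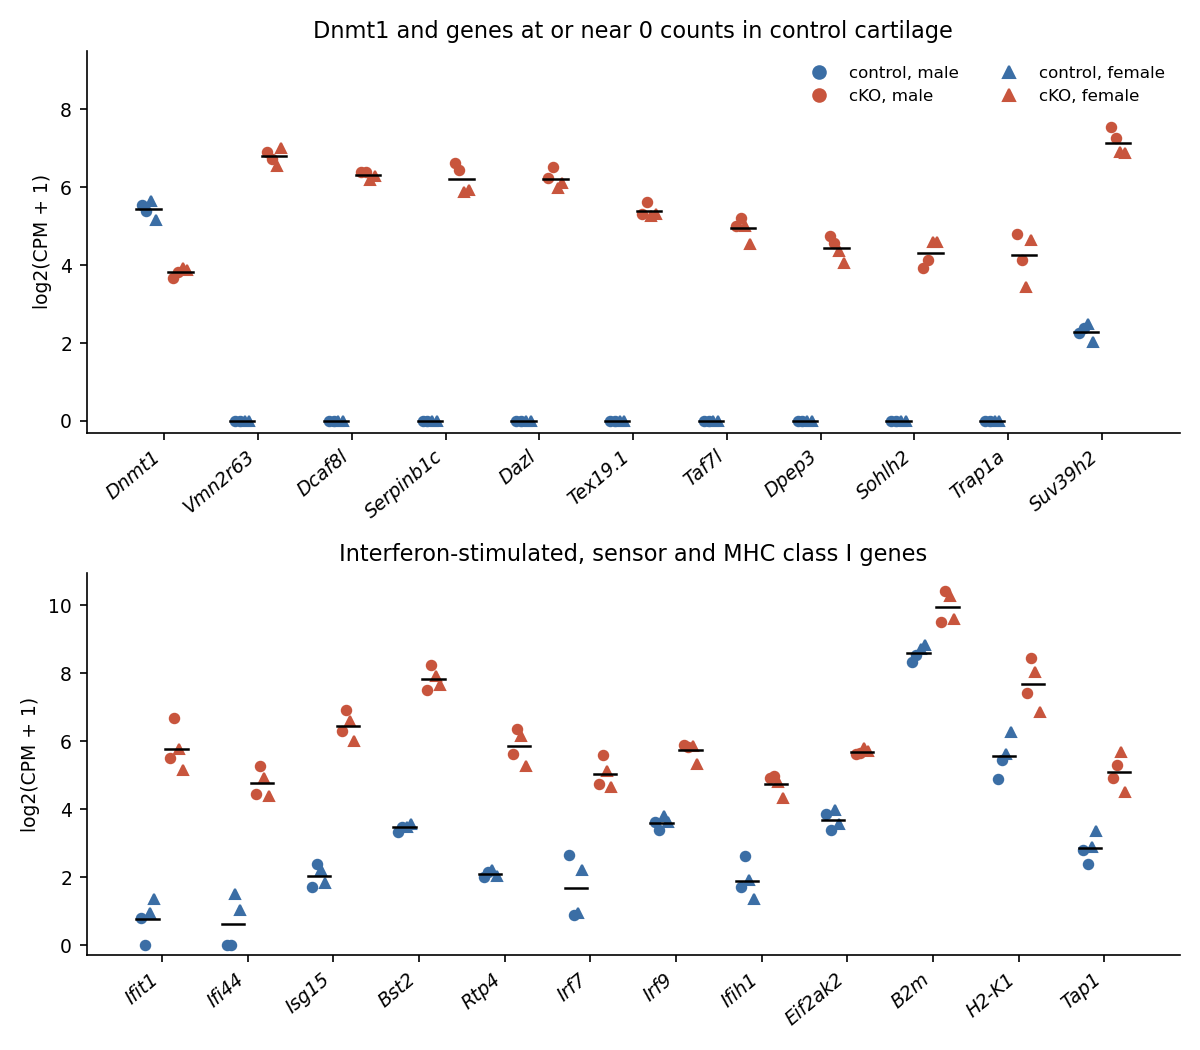
Level in each library as log2(CPM + 1) for Dnmt1, the named risers and genes of the interferon response, with control and cKO side by side, circles for males, triangles for females and bars for the means of 4. Dnmt1 is lower in all cKO libraries, the germ cell genes lie at 0 in the controls, and the interferon genes are higher in every cKO library drawn.

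Interferon-stimulated genes were higher in cKO, and with them antiviral RNA sensors and the antigen presentation genes of MHC class I. All 29 listed interferon genes were in the count table, and each had a higher mean CPM in the cKO libraries than in the controls. Of the 22 that were tested 21 rose and none fell (3.15% and 3.04% of all genes), with a median log2 difference of 3.30. Several of them are near 0 in controls and passed the filter through their cKO counts, so this count and median carry no weight of their own. The list summed to 298 to 396 CPM in controls and to 1429 to 2139 CPM in cKO, so the groups did not overlap. In bulk tissue a change in the share of some cells and a change of RNA within cells cannot be told apart, here and in every result below.

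The effectors rose furthest. Ifit1, which binds RNA that lacks the host cap mark, went from 0.75, 0, 0.92 and 1.54 CPM to 44.5, 101, 53.5 and 34.5 CPM (log2 difference 5.83, adjusted p = 1.01e-06). Isg15, a ubiquitin-like modifier, went from 2.25, 4.27, 3.67 and 2.57 CPM to 77.2, 121, 95.4 and 63.7 CPM (4.80, adjusted p = 1.94e-08). Bst2, the tetherin that holds budding virus at the cell surface, went from 9.01, 10.2, 10.1 and 10.8 CPM to 181, 300.0, 239 and 200 CPM (4.49, adjusted p = 1.25e-09). In all 3 genes cKO replicate 2 was highest and every cKO library exceeded every control. Ifi44 (5.03), Xaf1 (4.24), Rtp4 (4.13) and Usp18 (4.11), the protease that removes Isg15, rose by similar amounts, and Ifi27 (1.84) and Ifitm3 (1.39) by less.

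The factors that relay the signal rose too. Irf7, the amplifier of type I interferon transcription, went from 5.25, 0.85, 0.92 and 3.60 CPM to 26.0, 47.2, 33.9 and 24.1 CPM (log2 difference 3.45). Irf9, the DNA-binding subunit of the ISGF3 complex, rose by 2.22. Stat2, another transcription factor of the response, had a log2 difference of 0.75 and did not pass the test (adjusted p = 0.119), though it did without cKO replicate 1 (0.96, adjusted p = 0.043) and without a filter on low counts. The chemokine Cxcl10 rose by 1.27, but the call was lost without any 1 of control replicates 1, 2 and 3 or cKO replicates 2, 3 and 4, with log2 differences between 0.92 and 1.42.

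Of the 10 sensor genes that were in the count table, 8 had a higher mean CPM in cKO than in controls. The 3 that were tested rose (3.15% of all genes did), though Ifih1 reached the filter through its cKO counts. Ifih1 (MDA5), which senses long double-stranded RNA, went from 2.25, 5.12, 2.75 and 1.54 CPM to 29.4, 30.6, 26.8 and 18.9 CPM (log2 difference 3.21). Eif2ak2 (PKR), the kinase that halts translation on double-stranded RNA, went from 13.5, 9.39, 14.7 and 10.8 CPM to 48.7, 49.0, 54.4 and 51.7 CPM (2.08). Neither overlapped between groups. Ddx58 (RIG-I) rose by 1.07, and in the estimated counts, the authors' second table of the same libraries, it did not pass (0.51, adjusted p = 0.0599). Pnpt1, a mitochondrial RNA exonuclease chosen after its values were seen, rose from 9.24 ± 2.03 to 171 ± 29.5 CPM (4.19).

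Of 10 tested MHC class I genes 9 rose and none fell, beside 3.15% and 3.04% of all genes, with a median log2 difference of 1.38 (0.01 over all genes). All 17 listed genes had a higher mean CPM in cKO than in controls. B2m, the light chain of every class I molecule, went from 324, 369, 421 and 454 CPM to 723, 1370, 1240 and 775 CPM (1.40, adjusted p = 0.000408). H2-K1, a classical heavy chain, went from 28.5, 42.7, 48.6 and 76.2 CPM to 170, 352, 263 and 115 CPM (2.18). For neither gene did the genotypes overlap. The peptide transporter gene Tap1 rose by 2.35, the immunoproteasome subunit gene Psmb8 by 2.45 and the loading factor Tapbp by 1.08. Psmb10 (1.37) lost its call without any 1 of control replicates 1, 3 and 4 and cKO replicates 2 and 3, being 0.89 without cKO replicate 3, and also with DESeq2 and in the estimated counts (1.22, adjusted p = 0.0817). Psme2 (0.82) lost its call with DESeq2 and without control replicate 1 or cKO replicate 4. H2-T22 did not pass (0.68, adjusted p = 0.196), and heavy chain genes resemble each other enough that reads could be split between them.

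The promoters of 3 interferon genes are shown because they carry the motif of the interferon response. They were chosen after the matches were counted, as called genes with 3 matches to GAAANNGAA, the core of the interferon-stimulated response element, printed in capitals on either strand, and overlapping matches join into 1 run. They come from the same RefSeq table and build, with Ifit1 on the plus strand at chr19:34640639-34640888, Isg15 on the minus strand at chr4:156200819-156201068 and Ifit3 on the plus strand at chr19:34583279-34583528.
Ifit1: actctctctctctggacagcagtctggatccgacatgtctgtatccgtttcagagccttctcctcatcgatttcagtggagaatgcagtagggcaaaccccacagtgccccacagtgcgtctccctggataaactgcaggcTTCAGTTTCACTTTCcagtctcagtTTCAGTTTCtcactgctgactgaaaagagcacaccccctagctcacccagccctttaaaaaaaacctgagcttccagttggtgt
Isg15: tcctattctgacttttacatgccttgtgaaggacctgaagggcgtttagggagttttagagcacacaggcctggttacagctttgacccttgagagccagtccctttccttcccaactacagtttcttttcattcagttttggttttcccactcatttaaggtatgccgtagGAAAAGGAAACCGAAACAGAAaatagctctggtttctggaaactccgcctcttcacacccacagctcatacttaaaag
Ifit3: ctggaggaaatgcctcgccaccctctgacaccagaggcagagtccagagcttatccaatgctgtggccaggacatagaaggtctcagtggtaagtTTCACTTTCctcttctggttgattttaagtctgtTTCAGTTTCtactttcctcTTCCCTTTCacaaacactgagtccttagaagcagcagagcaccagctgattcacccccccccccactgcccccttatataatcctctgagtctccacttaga

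The motif lay in 8 of the 16 matched promoters of called interferon genes (50%), against 5.96% of all tested, 15.9% of those called higher, 6.44% of those called lower and 7.13% of the RefSeq table. These 16 promoters held a median of 4.5 CpGs (quartiles 2.75 and 5.25), compared with 14 for the 6 germ cell genes called higher and 17 for all tested genes. The 2 groups of risers therefore differed in the letters of their promoters, as a description with no test.

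Cartilage matrix genes were lower in the cKO libraries, most of them without passing the test. Of 23 tested, 4 fell and none rose, against 3.04% and 3.15% of all genes, while 21 had a log2 difference below 0, with a median of −0.40. Their summed level was 85800 to 123900 CPM in controls and 42960 to 78900 CPM in cKO, with no overlap. Col2a1 alone held a large part of that sum, 71274 of 123900 CPM in control replicate 3 and 18103 of 42960 CPM in cKO replicate 3. Col2a1 was at 55831, 55637, 71274 and 45337 CPM in controls and at 38240, 43041, 18103 and 29295 CPM in cKO, a log2 difference of −0.88 (SE 0.28, adjusted p = 0.0822) without overlap. It passed in the estimated counts (−0.94, adjusted p = 0.0284). Lowest of all was cKO replicate 3. The count of 4 matrix genes went to 8 with DESeq2 and 13 without a filter on low counts, to 2 without control replicate 1 or 2 or cKO replicate 2 or 3, and to 1 without control replicate 3.

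The called matrix genes were Col9a3, Hapln1, Matn1 and Matn3. Col9a3, a chain of type IX collagen that coats type II fibrils, was at 3027, 2945, 3194 and 2456 CPM in controls and 2055, 1400, 1202 and 1874 CPM in cKO (log2 difference −0.83, adjusted p = 0.0117). The link protein Hapln1, which ties aggrecan to hyaluronan, fell by 0.73 on the log2 scale, and the matrilins Matn1 and Matn3, which bridge matrix fibrils, fell by 0.93 and 0.80. Matn1 overlapped between the groups through control replicate 2 and cKO replicate 1, and the other 3 genes did not. The calls for Hapln1, Matn1 and Matn3 were each lost without any 1 of 5 libraries, among them control replicate 3, cKO replicate 2 and cKO replicate 3 for all of them, with control replicate 2 and cKO replicate 1 (Hapln1), control replicate 1 and cKO replicate 4 (Matn1), and control replicates 1 and 2 (Matn3) besides. Acan, the aggrecan core protein, did not pass (−0.45, adjusted p = 0.142). The estimated counts called 8 of the list lower, adding Col2a1, Col27a1 (−0.57), Col9a2 (−0.57) and Col11a2 (−0.59).

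None of 9 tested regulators of chondrocyte identity passed the test, and their median log2 difference was −0.32. Sox9, the master regulator of the lineage, had −0.43 (adjusted p = 0.161). None of the 10 tested genes of the joint surface passed either.

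**Figure D3:**
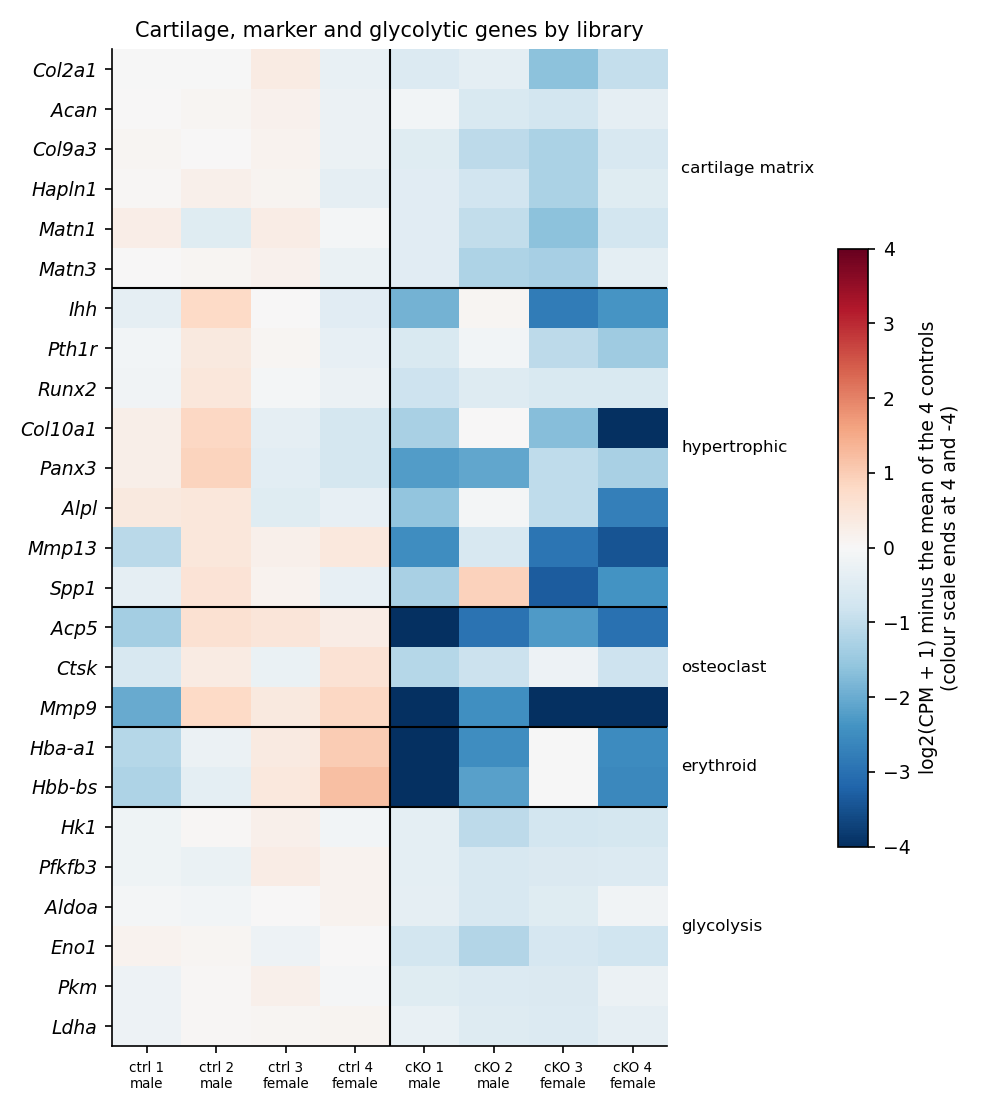
Heat map of log2(CPM + 1) in each of the 8 libraries minus the control mean, for genes of the cartilage matrix, hypertrophy, osteoclasts, red cells and glycolysis, on a colour scale that ends at −4 and 4. Most hypertrophic rows, though not Panx3, are high in cKO replicate 2 relative to the other cKO libraries, and Mmp9 and Acp5 are low in all cKO libraries.

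Genes of hypertrophic chondrocytes were lower in 3 of the 4 cKO libraries, while cKO replicate 2 lay near the controls. Of 14 tested, 7 fell and none rose, beside 3.04% and 3.15% of all genes, with a median log2 difference of −1.04. The summed level was 1790 to 3198 CPM in controls and 711 to 2514 CPM in cKO, so here the groups overlapped. Replicate 2 was the highest library of both genotypes, at 3198 CPM in controls and 2514 CPM in cKO. The sums of replicates 1, 3 and 4 were 2094, 2217 and 1790 CPM in controls and 1125, 908 and 711 CPM in cKO. Each cKO library thus lay below the control library of the same number and sex. Without cKO replicate 2 there were 9 calls and a median of −1.29. There were 2 calls without control replicate 2, cKO replicate 1 or cKO replicate 4, 4 without control replicate 3 or 4, and 3 without sex in the model.

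Col10a1, the collagen that marks hypertrophy, was at 470, 700.5, 305 and 245 CPM in controls and at 160, 401, 122 and 17.2 CPM in cKO (log2 difference −1.48, adjusted p = 0.0321). Ihh, the hedgehog ligand of cells entering hypertrophy, was at 24.0, 53.8, 31.2 and 22.1 CPM in controls and at 7.56, 32.4, 3.57 and 5.17 CPM in cKO (−1.48, adjusted p = 0.0466). In both genes cKO replicate 2 lay within the control range and the other 3 cKO libraries below it. Without cKO replicate 2 the log2 difference of Ihh was −2.44 (adjusted p = 0.000669), while its call was lost without any other library except control replicate 1. The call of Col10a1 was lost without control replicate 2, 3 or 4 or cKO replicate 1, at log2 differences between −1.49 and −1.33, and with DESeq2, and those of both genes without sex in the model.

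Mmp13, the collagenase of the last hypertrophic cells, was at 87.8, 257, 218 and 255 CPM in controls and at 32.8, 122, 24.1 and 16.4 CPM in cKO (log2 difference −2.17, adjusted p = 0.00925). Without cKO replicate 2 it was −3.08, and without cKO replicate 3 or 4 the call was lost (−1.91 to −1.83). Panx3, a channel of prehypertrophic cells, was at 107, 170, 67.9 and 56.1 CPM in controls and at 18.5, 20.99, 44.6 and 36.2 CPM in cKO (−1.65, adjusted p = 0.00596). Only Panx3 of these 4 genes had no overlap. Pth1r, the receptor through which hypertrophy is delayed, fell by 0.80, Runx2, the factor that drives hypertrophy and bone formation, by 0.66, and Alpl, the phosphatase of mineralisation, by 1.16. These 3 calls were lost without control replicate 2, cKO replicate 1 or cKO replicate 4, that of Alpl also without control replicate 1 or 4 and that of Runx2 without control replicate 3, with DESeq2 and in the estimated counts (−0.58, adjusted p = 0.0682). Those of Alpl and Pth1r were lost without sex in the model.

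Matrix genes of bone that late hypertrophic cells share with osteoblasts passed the test only where cKO replicate 2 was left out, of the 8 libraries left out in turn, and without a filter on low counts. Spp1 (osteopontin) was at 393, 724, 552 and 398 CPM in controls and 204, 946, 49.1 and 94.8 CPM in cKO (log2 difference −1.23, adjusted p = 0.187). Without cKO replicate 2 it was −2.15 (adjusted p = 0.000243). Ibsp (bone sialoprotein) was at 48.8, 217, 84.4 and 62.3 CPM in controls and 20.2, 216, 6.24 and 6.89 CPM in cKO (−1.13, adjusted p = 0.326), and without cKO replicate 2 it was −3.05 (adjusted p = 0.000819).

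Markers of cells that border the growth plate moved with these genes in part. Of 18 osteoclast genes 7 were tested, 3 fell (3.04% of all genes did) and none rose, with a median log2 difference of −0.38. The summed level was 604 to 1007 CPM in controls and 447 to 568 CPM in cKO. Among the 4 that did not pass were Clcn7 (−0.25, adjusted p = 0.588) and Tcirg1 (0.44, adjusted p = 0.379), so the list did not fall as a whole. Mmp9, the gelatinase of osteoclasts at the cartilage to bone front, was at 30.0, 214, 164 and 218 CPM in controls and at 0.84, 21.9, 1.78 and 0.86 CPM in cKO (log2 difference −4.59, adjusted p = 0.000512; without cKO replicate 2, −7.07). Acp5, the tartrate-resistant phosphatase of osteoclasts, was at 12.8, 52.0, 47.7 and 41.7 CPM in controls and at 0.84, 3.5, 6.24 and 3.45 CPM in cKO (−3.42, adjusted p = 0.00019). Neither overlapped. Ctsk, the bone collagen protease, fell by 0.82 but lost the call without sex in the model and without any 1 of control replicates 2 and 4 and cKO replicates 1, 2 and 4 (0.59 to 0.85 lower). The osteoclast fusion and receptor genes Ocstamp, Dcstamp and Oscar and the anhydrase Car2 were near 0 in both genotypes.

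All 4 tested red cell genes fell (3.04% of all genes did), with a median of −1.91 and a summed level of 167 to 917 CPM in controls and 13.4 to 389 CPM in cKO, which overlapped. Hbb-bs, an adult beta globin, ran from 116 to 641 CPM in controls and from 7.56 to 277 CPM in cKO, with cKO replicate 3 the highest of its group. Without cKO replicate 4, with DESeq2 or without sex in the model, none of the 4 was called, without control replicate 4 only Hbb-bt, another beta globin, was, and without cKO replicate 3 the log2 difference of Hba-a1 went from −1.90 to −3.14. Bone-forming cell markers were few: 3 of 11 were tested and none was called, with Col1a1 at −0.89 (adjusted p = 0.102; called at −1.14 without cKO replicate 2, at −0.9996 in the estimated counts, without a filter on low counts and with the replicate block) and Bglap and Mepe near 0. Macrophage genes (5 tested, none called) summed to 84.0 to 162 CPM in controls and 64.6 to 153 CPM in cKO. No neutrophil gene passed the filter.

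Vessel markers did not move together. Of 12 tested endothelial genes 1 rose and none fell, beside 3.15% and 3.04% of all genes, while 8 had a log2 difference below 0. The riser was Eng (a TGF-beta co-receptor, 0.81). Cdh5, an endothelial cadherin, did not pass (−1.16, adjusted p = 0.056). It did without cKO replicate 2 (−1.54, adjusted p = 0.012), without a filter on low counts and with the replicate block. The summed endothelial levels of 269 to 432 CPM in controls and 263 to 424 CPM in cKO overlapped. Of 5 mural cell genes 1 fell (3.04% of all genes did), Rgs5, a pericyte marker (−1.68). Its call was lost with DESeq2 and without control replicate 4 (−1.32, adjusted p = 0.0552). In the muscle list 1 of 2 tested genes rose (3.15% of all genes did). It was Tnnt3, a fast skeletal troponin, from 8.26, 6.83, 9.17 and 7.21 CPM to 75.6, 42.9, 41.9 and 69.8 CPM (2.87). Tnni2 (1.16, adjusted p = 0.092) passed only without control replicate 3 (1.59), cKO replicate 1 (1.42) or a filter on low counts. The muscle list summed to 44.3 to 99.8 CPM in controls and 125 to 333 CPM in cKO, without overlap, and the defining genes Myog, Myf5 and Myh3 were at or near 0. Cdh19, a cadherin of Schwann cell precursors, rose from 2.34 ± 0.95 to 23.4 ± 2.42 CPM (3.25) with Sox10, a factor of the Schwann cell lineage, near 0. The part of osteoclast, red cell and muscle markers in the cartilage results was not tested.

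**Figure D4:**
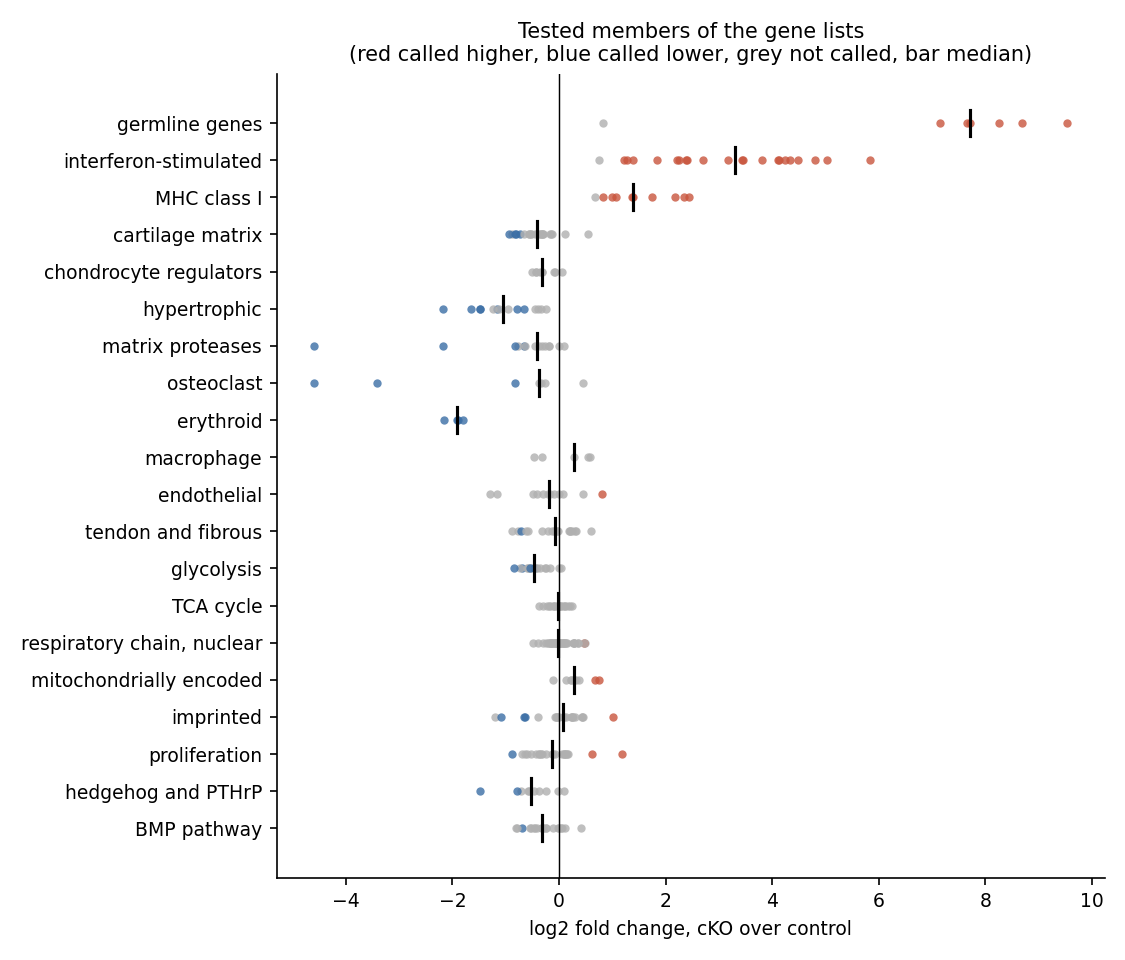
Log2 ratio of cKO to control of each tested member of 20 gene lists (dots, called genes in colour) with the list median as a bar. The interferon and MHC class I lists lie above 0, the hypertrophic, red cell and glycolysis lists below it, and lists of mitochondrial metabolism close to it.

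Energy metabolism is the subject named in the series title. The summed level of glycolysis genes was lower in cKO, and few nuclear genes of mitochondrial metabolism passed the test. Of 17 tested glycolysis genes 4 fell and none rose, beside 3.04% and 3.15% of all genes, with a median log2 difference of −0.46. The 22 glycolysis genes in the table summed to 2305 to 2741 CPM in controls and 1637 to 2246 CPM in cKO, without overlap. None of 20 genes of the citric acid cycle passed, with a median of −0.01. Of 40 nuclear genes of the respiratory chain 1 rose, Ndufb9, a complex I subunit (0.46), and that call was lost without any 1 of the 8 libraries.

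The called glycolysis genes sit at the entry, the control point and the end of the pathway. Hk1, the hexokinase that traps glucose, was at 55.5, 64.8, 72.5 and 58.2 CPM in controls and 47.9, 29.7, 37.5 and 37.9 CPM in cKO (log2 difference −0.70). Pfkfb3, which makes the activator of phosphofructokinase, fell by 0.55. Eno1, enolase, was at 137, 131, 108 and 126 CPM in controls and 74.7, 55.1, 78.5 and 71.5 CPM in cKO (−0.84, adjusted p = 0.00174). Pkm, pyruvate kinase, fell by 0.46. None of the 4 overlapped, nor did 474 of the 544 called genes and 13.5% of all genes. The call of Pkm was lost without any 1 of the 8 libraries. Those of Hk1 and Pfkfb3 were lost without control replicate 3 or cKO replicate 3 or 4. That of Hk1 was also lost without control replicate 2, and that of Pfkfb3 without control replicate 4. Ldha, which turns pyruvate into lactate, was at 371, 445, 449 and 461 CPM in controls and 352, 298, 292 and 338 CPM in cKO and did not pass (−0.43, adjusted p = 0.0642).

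Which glycolysis genes passed depended on the count table. The estimated counts called 6 lower, Hk1 and Pfkfb3 in common with the first table and in addition Pfkm (−0.87), Hk2 (−0.59), Ldha (−0.44) and Aldoa (−0.43), whereas Eno1 (−0.36, adjusted p = 0.122) and Pkm (−0.31, adjusted p = 0.132) did not pass. The summed level there was 5205 to 5795 CPM in controls and 3709 to 5088 CPM in cKO, again without overlap. DESeq2 called 1 glycolysis gene, and so did edgeR without control replicate 3 or cKO replicate 3, with 2 called without control replicate 2 and 9 without a filter on low counts. Of 18 hypoxia genes, several of which are glycolytic regulators, 1 fell (3.04% of all genes did). It was Car12, a membrane carbonic anhydrase (−0.99), whose call was lost in the estimated counts (−0.37, adjusted p = 0.143) and without control replicate 2 or cKO replicate 1, 2 or 4.

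The 13 protein-coding genes of the mitochondrial chromosome summed to 19020 to 22420 CPM in controls and 24340 to 27950 CPM in cKO. This sum held little of mt-Atp6, mt-Co2 and mt-Co3, at control means of 32.0, 51.0 and 47.3 CPM against 5276, 7565 and 6630 CPM in the estimated counts. There the sum was 36370 to 44620 CPM in controls and 48800 to 54090 CPM in cKO. In the whole-number counts 2 of 10 tested rose, beside 3.15% of all genes, and the median was 0.28. All counts from that chromosome together overlapped, at 7.47%, 8.41%, 14.7% and 6.22% of the controls and 9.43%, 10.6%, 11.8% and 10.1% of the cKO libraries. mt-Nd6, the only complex I subunit on the light strand, went from 2558, 2280, 2417 and 1986 CPM to 4003, 4196, 3788 and 3562 CPM (0.75, adjusted p = 0.00614). mt-Nd5 went from 1935, 1541, 1555 and 1358 CPM to 2662, 2492, 2626 and 2333 CPM (0.67), and its call was lost without control replicate 2 or 4 or cKO replicate 1. Both genes were higher in every cKO library than in any control. They lie next to each other on opposite strands, and since the counting is not stated to use strand, their reads may be split between them. In fatty acid oxidation 1 of 14 genes fell and 1 rose, beside 3.04% and 3.15% of all genes. The faller was Hadh, a dehydrogenase of the beta oxidation spiral (−0.93), and the riser Etfa, an electron transfer subunit (0.47). The call of Etfa was lost without any 1 of the 8 libraries and in the estimated counts (0.33, adjusted p = 0.158).

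The growth factor Igf2, an imprinted gene that drives fetal growth, passed the test in 1 of the authors' 2 tables and was present at a different level in each. In the whole-number counts it stood at 41.3, 20.5, 16.5 and 20.1 CPM in controls and at 14.3, 3.5, 12.5 and 12.1 CPM in cKO (log2 difference −1.20, adjusted p = 0.0601). In the estimated counts it stood at 11755, 10070, 10213 and 8727 CPM in controls and at 3995, 3365, 2958 and 3925 CPM in cKO (−1.51, adjusted p = 1.11e-05). Neither table showed an overlap. The control level was 415-fold higher in the estimated table, and the median ratio of estimated to whole-number levels was 0.89 over 8397 genes.

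Of 22 tested imprinted genes 3 fell and 1 rose, beside 3.04% and 3.15% of all genes, and the median was 0.08. Igf2r, the receptor that removes Igf2, was at 491, 464, 492 and 402 CPM in controls and 322, 287, 250 and 319 CPM in cKO (log2 difference −0.65). Grb10, an adaptor that limits growth signals, was at 387, 394, 344 and 386 CPM in controls and 228, 206, 273 and 270 CPM in cKO (−0.64). Zim1, a zinc finger gene, was at 185, 115, 131 and 134 CPM in controls and 49.5, 54.2, 67.8 and 97.3 CPM in cKO (−1.09). Peg10, a gene derived from a retrotransposon, was at 37.5, 29.0, 33.9 and 36.5 CPM in controls and 78.9, 40.2, 67.8 and 90.4 CPM in cKO (1.01). All 4 were without overlap, as were 474 of the 544 called genes and 13.5% of all genes. Cdkn1c, the cell cycle inhibitor p57, had −0.40 and did not pass here, but did in the estimated counts (−0.46, adjusted p = 0.0286).

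Among signalling lists, calls were few, and single calls are too few to weigh against the 3.04% of all genes that fell and the 3.15% that rose. Of 10 hedgehog pathway genes 2 fell, the ligand Ihh and its feedback partner Pth1r, while the target gene Ptch1 did not pass (−0.58, adjusted p = 0.0856), though without control replicate 4 it did (−0.77), as it did without a filter on low counts and with the replicate block. Of 20 Wnt genes 2 fell, Wnt4 (−1.05), a ligand of prehypertrophic cells, and Sfrp5, a secreted antagonist (−0.92). Of 22 BMP genes 1 fell, Smad1, a signal transducer (−0.69), and of 12 FGF genes 1 fell, Spry4, a feedback inhibitor (−0.73). In the IGF list Pappa2, a protease that frees IGF from its binding proteins, rose by 0.85 and Igf2r fell, of 13 tested. The calls of Wnt4, Sfrp5, Smad1, Spry4 and Pappa2 were each lost with DESeq2 and without any 1 of 3 to 7 libraries. In the estimated counts Wnt4 (−0.51, adjusted p = 0.12), Smad1 (−0.63, adjusted p = 0.0644), Spry4 (−0.74, adjusted p = 0.0562) and Pappa2 (0.50, adjusted p = 0.242) did not pass either. In Wnt4 these were control replicates 1 to 3 and cKO replicates 1, 3 and 4, in Sfrp5 control replicates 1 and 3 and cKO replicate 3, and in Smad1 control and cKO replicates 1 and 2. For Spry4 they were all but cKO replicate 3, and for Pappa2 control replicates 1, 3 and 4 and cKO replicates 3 and 4.

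Of 23 cell cycle genes 2 rose and 1 fell, counts too small to weigh against the 3.15% and 3.04% of all genes. The estimated counts called 2 higher and 3 lower. Ccnd1, the cyclin that opens the G1 phase, went from 40.5, 41.0, 33.0 and 42.7 CPM to 89.0, 81.3, 91.9 and 95.6 CPM (log2 difference 1.17, adjusted p = 5.6e-05), without overlap. Ccnd2 rose by 0.62 and Rrm2, a subunit of ribonucleotide reductase used in S phase, fell by 0.87, while the mitotic kinase Cdk1 did not pass (−0.70, adjusted p = 0.0732), though it did without cKO replicate 4 (−1.002), in the estimated counts (−0.80, adjusted p = 0.0346) and without a filter on low counts. In the p53 list 1 of 13 rose, Trp53inp1, a stress-induced partner of p53, from 10.5, 5.12, 7.34 and 8.75 CPM to 31.1, 24.5, 18.7 and 24.1 CPM (1.58), and the cell cycle inhibitor Cdkn1a did not pass (0.47, adjusted p = 0.0734), though it did without control replicate 3 (0.58) or cKO replicate 3 (0.56) and in the estimated counts (0.48, adjusted p = 0.0406). In the list of endoplasmic reticulum and amino acid stress 2 of 19 rose: Asns, asparagine synthetase, from 64.5, 56.3, 51.4 and 44.3 CPM to 122, 117, 97.2 and 115 CPM (1.07), and Trib3, a pseudokinase induced with it (1.701). Of 40 ribosomal protein genes 2 rose and 2 fell, and Rps19 (0.60) lost its call without control replicate 2, 3 or 4 or cKO replicate 1 or 4.

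The largest falls outside the groups above were spread over unrelated roles. Lpin1, a phosphatidate phosphatase of lipid synthesis, fell from 80.6 ± 10.6 to 26.7 ± 11.5 CPM (log2 difference −1.58), Cpz, a carboxypeptidase that acts on Wnt ligands, from 64.2 ± 11.5 to 20.6 ± 7.65 CPM (−1.63), and Mvd, an enzyme of sterol synthesis, from 29.7 ± 9.38 to 10.4 ± 2.46 CPM (−1.49). Ung, the glycosylase that removes uracil from DNA, fell by 1.65, Il4ra, the interleukin 4 receptor, by 1.54, Flvcr2, a membrane transporter, by 1.53, Tmie by 1.44 and Kif7, a kinesin of hedgehog signalling in cilia, by 1.43. Wfdc1, a small secreted protease inhibitor, fell by 2.02, and the call was lost without control replicate 4 or cKO replicate 4. Among highly counted genes Kdelr2, which returns proteins to the endoplasmic reticulum, fell by 0.68 and Col12a1, a collagen of dense connective tissue, by 0.71, the latter not without control replicate 2 or cKO replicate 1. Tpt1 (−0.51) lost its call without any library except cKO replicate 4 and stood at −0.03 in the estimated counts.

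The genotype effect was also fitted in each sex, in 1 model of the 4 groups. With 2 libraries per group it called 195 genes (2.22%) in males and 214 (2.43%) in females, and the difference between the sexes was called for 1 gene (0.0114%), Xist, the RNA that coats and silences 1 X chromosome in female cells. At an unadjusted p of 0.05 the difference passed for 437 of 8793 genes with edgeR and for 154 with DESeq2, which also called 1. Such a threshold flags about 1 in 20 genes by chance. Xist was counted 3 and 4 times in the control males, 476 and 376 times in the cKO males, 655 and 997 times in the control females and 1300 and 1256 times in the cKO females. The log2 difference was 6.98 (SE 0.33, adjusted p = 1.54e-08) in males and 1.01 (adjusted p = 0.00885) in females, and that between the sexes was −5.97 (SE 0.40, adjusted p = 2.35e-06). Over both sexes together Xist rose by 2.66, a call that was lost without control replicate 1 (2.01) or 2 (2.07) or without sex in the model. Next in line and not called for a difference between the sexes was Panx3, at −2.80 in males and −0.60 in females (difference 2.19, adjusted p = 0.19). Tsix, the antisense partner of Xist, had 0 counts in the controls and 3, 0, 1 and 1 in cKO replicates 1 to 4, and without a stated use of strand the reads of the pair cannot be told apart.

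The Y-linked genes kept their counts in the males that expressed Xist. Ddx3y had 217 and 234 counts in control males and 299 and 272 in cKO males. The other 288 tested X-linked genes had a median log2 difference of −0.13 in males and −0.08 in females, with 62.8% and 58% below 0, against medians of 0.00 and 0.02 and 49.7% and 48.3% below 0 for 8484 autosomal genes. Dcaf8l, Trap1a and Taf7l, which rose, are among the X-linked genes. X-linked genes took 2.74% to 2.98% of the counts in the 8 libraries.

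**Figure D5:**
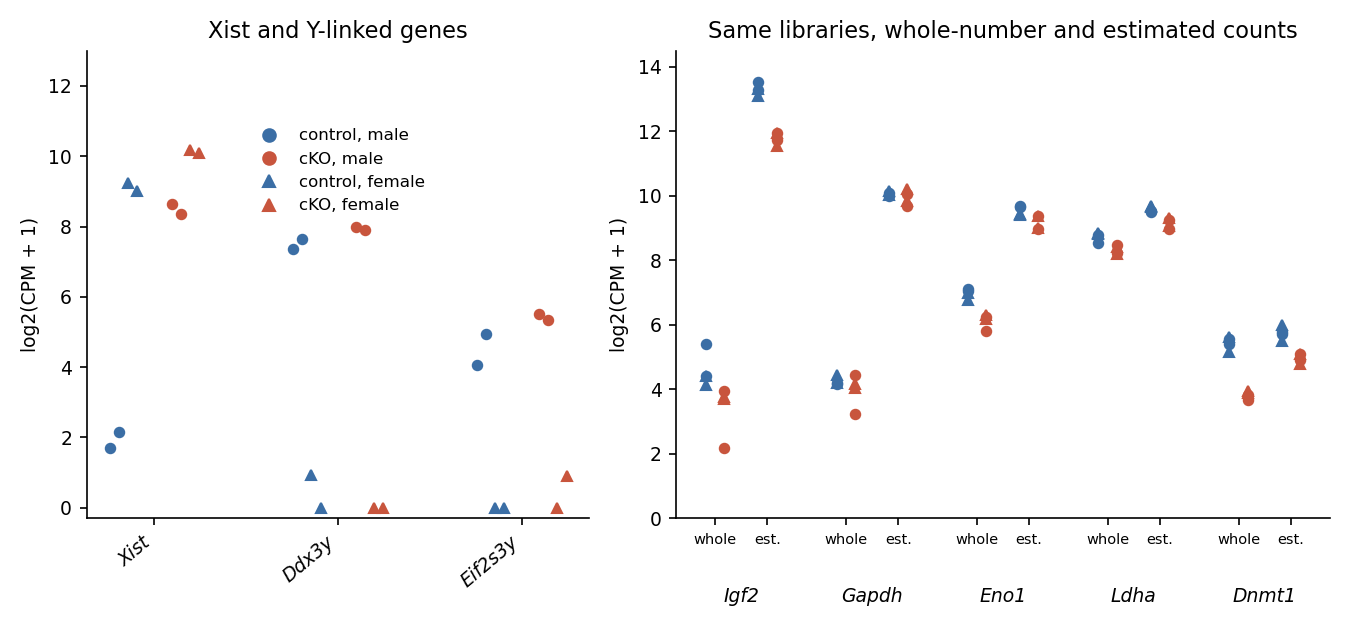
Level in each library as log2(CPM + 1), by sex (circles male, triangles female) and genotype (blue control, red cKO), of Xist, Ddx3y and Eif2s3y at left and of Igf2, Gapdh, Eno1, Ldha and Dnmt1 in the whole-number and estimated counts at right. Xist is present in both cKO males beside Ddx3y and Eif2s3y, Igf2 and Gapdh lie far higher in the estimated counts, and the gap between genotypes for Dnmt1 is smaller there.

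The authors' 2 tables of the same libraries shared most calls and parted on some genes. The estimated counts called 733 of 10872 genes (6.74%). Over 8413 genes tested in both, 515 were called in the whole-number counts and 550 in the estimated ones, and 395 in both (76.7% and 71.8%), all in the same direction, and the log2 differences had a Pearson correlation of 0.90 across genes, which are not independent. Dnmt1 fell by 0.78 in the estimated counts (adjusted p = 0.0108), from 52.9 ± 7.60 to 30.6 ± 3.30 CPM, less than its fall by 1.66 above. All 21 interferon calls were made there too, with a list median of 2.80. The glycolysis gene Gapdh, at −0.24 in the whole-number counts, had a control level 59.6 times higher in the estimated table, and Pgk1 one 30.9 times higher.

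For 22 genes the log2 difference parted by more than 2 between the tables, and in 19 of them it was higher in the estimated counts. Sirt5, a mitochondrial enzyme that removes succinyl and malonyl groups from proteins, rose by 1.76 in the whole-number counts and by 8.58 in the estimated ones, from 77.0 ± 15.5 to 29230 ± 3290 CPM. Lrrc8d, a subunit of volume-regulated anion channels, stood at 0.78 and 6.70. Stx18, a syntaxin of the endoplasmic reticulum, stood at −0.04 and 6.38, Patj, a cell polarity scaffold, at −0.28 and 5.49, and Atg2b, a lipid transfer protein of autophagy, at −0.09 and 5.38. Noct, named above, stood at 2.87 and 7.11. Tex13b went the other way, at 6.98 and 1.88. How the estimated counts were made is not given in the sources used here, and these values should be read with their table.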

How the data were processed

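The 8 cartilage libraries, 4 per genotype, were grouped by their genotype, tissue and sex labels. BRB-seq libraries carried barcoded oligo-dT primers with molecular identifiers, per the labels' protocols. The authors deposited whole-number counts per gene and, for the same libraries, estimated counts, which need not be whole. The submitters' processing notes name UMI-tools 1.1.1, Trim Galore 0.6.7, HISAT2 2.2.1, featureCounts 2.0.1 and DESeq2 1.34.0 with build GRCm38. Whether identifiers were collapsed, whether strand was used and how the estimated counts were made are not given in the sources used here. Total counts of 1100198 to 1888896 per library limit the precision for low genes, and the limits given for a count of 0 cover counting error only.

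The counts were tested as deposited with edgeR 4.0.16 in R 4.3.3 (TMM scaling, quasi-likelihood test, sex as covariate) for genes passing filterByExpr with a minimum of 10 counts and 15 in total, with Benjamini-Hochberg adjustment at 0.05. A second model of the 4 sex and genotype groups gave the interaction. The estimated counts were rounded to whole numbers and tested the same way. The test was checked on simulated data. Alternatives were the estimated counts, other size factors, DESeq2 1.42.0, looser and stricter filters, no sex covariate, the replicate number as a block, ribosomal RNA left out, and each library left out in turn. Of the 23911 gene identifiers, 23884 were matched by identifier to the annotation.

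The genes named are the 15 largest rises and 15 largest falls among called genes above a mean log2 CPM of 1, the 10 most counted called genes, the 5 leading interaction genes, the 8 genes that differ most between the tables, the called members of the gene lists and a few members that were not called; some members are not reported here. The comparison, the members and the lists were chosen with earlier results of these data known. Lists held 786 distinct genes, of which 742 were in the table and 528 were tested. Promoters were the 250 bases before the start in the RefSeq table of GRCm38.p6, matched by symbol for 6841 of the 8793 tested genes, taking the row nearest to the annotated start where there were several. The 14 cell culture samples were not used here.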

Additional observations from a re-analysis of the deposited data

Results flagged for a closer look

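A library that stood apart from the other 3 of its genotype was found in 20 of 290 groups of 4 values, where chance flags about 1 in 20. Levels are in CPM of the whole-number counts. Of these, 9 were high values of cKO replicate 2. Mmp9 was at 21.9 there and at 0.84 to 1.78 in the other cKO libraries, Ihh at 32.4 against 3.57 to 7.56, Mmp13 at 122 against 16.4 to 32.8, Ibsp at 216 against 6.24 to 20.2, and Sp7, the osteoblast transcription factor, at 14.0 against 6.72 to 7.14. The same library was high in Tnni2 (234 against 54.4 to 73.0), in the interferon genes Ifit3 (51.6 against 24.1 to 26.0) and Cxcl10 (49.0 against 22.4 to 26.8) and, by less, in Tex19.1 (48.1 against 37.5 to 38.8).

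Other cKO libraries stood apart for single genes. Hba-a1 was at 38.4 in cKO replicate 3 and at 0.84 to 6.12 in the others. In cKO replicate 4 Flvcr2 was at 7.75 against 4.2 to 4.46 and Irf9 at 39.6 against 56.0 to 57.9.

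Among controls, replicate 4 was high in the pericyte marker Rgs5 (116 against 46.5 to 53.8), in Ifitm3 (175 against 89.9 to 99.1) and in Gapdh (20.6 against 17.1 to 17.4), and low in Stat2 (14.9 against 22.9 to 23.3). Control replicate 1 was low in Col12a1 (1085 against 1434 to 1477) and high in Igf2 (41.3 against 16.5 to 20.5). Control replicate 2 was high in Sp7 (27.3 against 12.4 to 14.7), and control replicate 3 low in Grb10 (344 against 386 to 394).

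The genotype effect on Xist differed between the sexes by −5.97 on the log2 scale (female minus male), with an adjusted p of 2.35e-06 by edgeR's quasi-likelihood test of the interaction. Xist was higher in both cKO males than in both control males and in both cKO females than in both control females.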

How the results depend on the processing

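The count of 544 called genes was 542 with DESeq2-style size factors in edgeR, 733 in the estimated counts, 603 with a stricter filter, 498 without sex in the model and 436 with DESeq2. Without an expression filter 1044 genes were called, 521 higher and 523 lower, and DESeq2 called 154 lower. Leaving out 1 library gave 362 to 630 called genes and 162 to 333 called lower, with the fewest lower without cKO replicate 4 (162), control replicate 2 (163) or cKO replicate 1 (165). The interaction between sex and genotype was called for 2 genes in the estimated counts, for 33 without a filter and for 1 to 6 with 1 library left out. Of 125 called genes among the 162 examined, 84 stayed called under all alternatives. The direction turned for Stx18 in the estimated counts (6.38) and without cKO replicate 1 (0.15) or 3 (0.02), with −0.24 to 0.15 over single libraries left out, for Patj (5.49) and Atg2b (5.38) in the estimated counts and for Atg2b without cKO replicate 4 (0.0009), with −0.19 to 0.0009 over single libraries left out. It also turned for Rpl15 (0.0529) and Rps4x (0.0217) in the estimated counts, both called lower in the whole-number counts, and for the cell division gene Aspm without control replicate 4 (−0.0448, and up to 0.79 without another library). Beyond what each alternative changes by construction, the cause was not tested.

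By the labels, same-numbered control and cKO samples share a number and their sex, and whether they share more is not stated. The correlations of their deviations from the group means were 0.27, 0.08, −0.08 and 0.12 for replicates 1 to 4. Control replicates 1 and 2 and cKO replicates 1, 2 and 4 correlated best with their own number, and the others did not. Ribosomal RNA took 20.35%, 12.45%, 21.03% and 9.96% of the counts in controls 1 to 4. In cKO replicates 1 to 4 it took 21.69%, 15.32%, 23.57% and 15.29%. A pairing by number was not tested. With the replicate block 576 genes were called, 279 higher and 297 lower, and Dnmt1 fell by 1.67.

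Depth limits the genes silent in controls, since 3 counts correspond to 1.55 to 2.75 CPM, and most germ cell genes lay below the filter.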
